A study of Arabidopsis thaliana with 44 samples.

Results

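Dry Arabidopsis seed, freshly harvested, was compared between mother plants grown under low nitrate and mother plants grown at 20C, in the near isogenic line named for the seed dormancy locus DELAY OF GERMINATION 1 (NIL DOG1). Such a line is bred to carry a donor segment around 1 locus in an otherwise uniform background, and whether it holds further segments was not examined here. The 6 arrays were chosen by their titles: 3 labelled for NIL DOG1 under low nitrate (N0) and 3 for NIL DOG1 at 20C, of 44 arrays in all. The groups are NIL DOG1 seed matured on plants given low nitrate and NIL DOG1 seed matured on plants grown at 20C, which the design text names as the control for low nitrate. Both groups carry the same DOG1 introgression and differ, per the labels, in the growth condition alone. Each array held seed RNA from a bulk of 4 plants, grown in a randomized complete block design, and the labels call the replicates biological. The other lines of the series, NIL DOG3 and NIL DOG6, were grown under the same conditions and are used below for 1 comparison. The labels give neither the nitrate concentrations nor the temperature of the low-nitrate plants, and the 20C arrays are also the controls of a comparison with 15C that is not made here. Per the labels the samples are total RNA, although the extraction text also covers RNA from polysomes.

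Nitrate is taken up by transporters, reduced to nitrite by nitrate reductase and to ammonium by nitrite reductase, and then built into glutamine and glutamate. It is also a signal: factors of the NLP family switch on uptake and reduction genes when nitrate is present, and repressors of the LBD and NIGT1 families hold them back. Nitrate given to the mother plant or to imbibed seed is known to lower dormancy in Arabidopsis, and breakdown of the dormancy hormone abscisic acid (ABA) by CYP707A2 is part of that response. The DOG1 gene product delays germination through the same phosphatases that act in ABA signalling.

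Seed identity was checked first. The 15 seed storage and oil body genes had a mean log2 level of 11.46 to 11.53 over the low-nitrate arrays and 11.60 to 11.64 over the 20C arrays, and the 17 late embryogenesis abundant (LEA) genes had 11.41 to 11.46 under low nitrate and 11.47 to 11.48 at 20C. Both lists thus lay near the top of the scale on every array, where the median probe set had a level of 4.29. Other lists were looked at too. Of these, 9 of 12 seed coat and mucilage genes and 8 of 9 endosperm genes had a mean below that median. So had 14 of 21 leaf photosynthesis genes and 6 of 15 pollen genes. The mean of the pollen list ran from 4.58 to 5.36 under low nitrate and from 5.00 to 5.35 at 20C, and none of its 15 members, nor of the seed coat and endosperm members, was called. The mean of the storage genes, and likewise that of the LEA genes, was lower on every low-nitrate array than on any 20C array. The part of these shifts in other changes was not tested. In RNA from whole seed, fewer cells of a type and less RNA per cell cannot be told apart.

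The arrays measured 27827 probe sets, 1 per locus, on the log2 scale. Medians of the 6 arrays lay between 4.23 and 4.27. Low-nitrate arrays correlated with 20C arrays at 0.989 to 0.991 over all probe sets, and arrays within a group at 0.990 to 0.994. A probe set was called where limma's Benjamini-Hochberg adjusted p over all 27827 was under 0.05, with the spread estimated from all 15 groups of the series. Differences are low nitrate minus 20C on the log2 scale, written with their SE, and the median SE was 0.16. The number of arrays limits the precision.

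A small share of the probe sets was called between low nitrate and 20C, and a probe set without a call is not shown to be unchanged. In all, 764 probe sets were called (2.75%), of which 435 were higher under low nitrate (1.56%) and 329 lower (1.18%). A change of at least 2-fold was reached by 50 of those higher and 64 of those lower, together 0.41% of the probe sets. The median size of a called change was 0.62 and the smallest 0.26. The low-nitrate and 20C values did not overlap in 758 of the 764, and in 19.9% of all probe sets. Of the 13913 probe sets above the median level, 696 were called (5.00%), against 68 of the dimmer ones (0.489%). None of 15 plastid and none of 92 mitochondrial loci was called by limma, while 3488 of all probe sets had an unadjusted p under 0.05.

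The number of calls depended on the arrays in the fit. With only the 6 arrays it was 233, with 122 higher and 111 lower, of which 218 were also called with the spread of all 15 groups. Leaving out 1 of the 6 arrays gave 398 calls (without low-nitrate array 2), 422 (without 20C array 2), 492 (without low-nitrate array 3), 506 (without 20C array 1), 572 (without low-nitrate array 1) and 628 (without 20C array 3). Calls that were lost without a named array, or with only the 6 arrays in the fit, are given beside the genes.

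**Figure D1:**
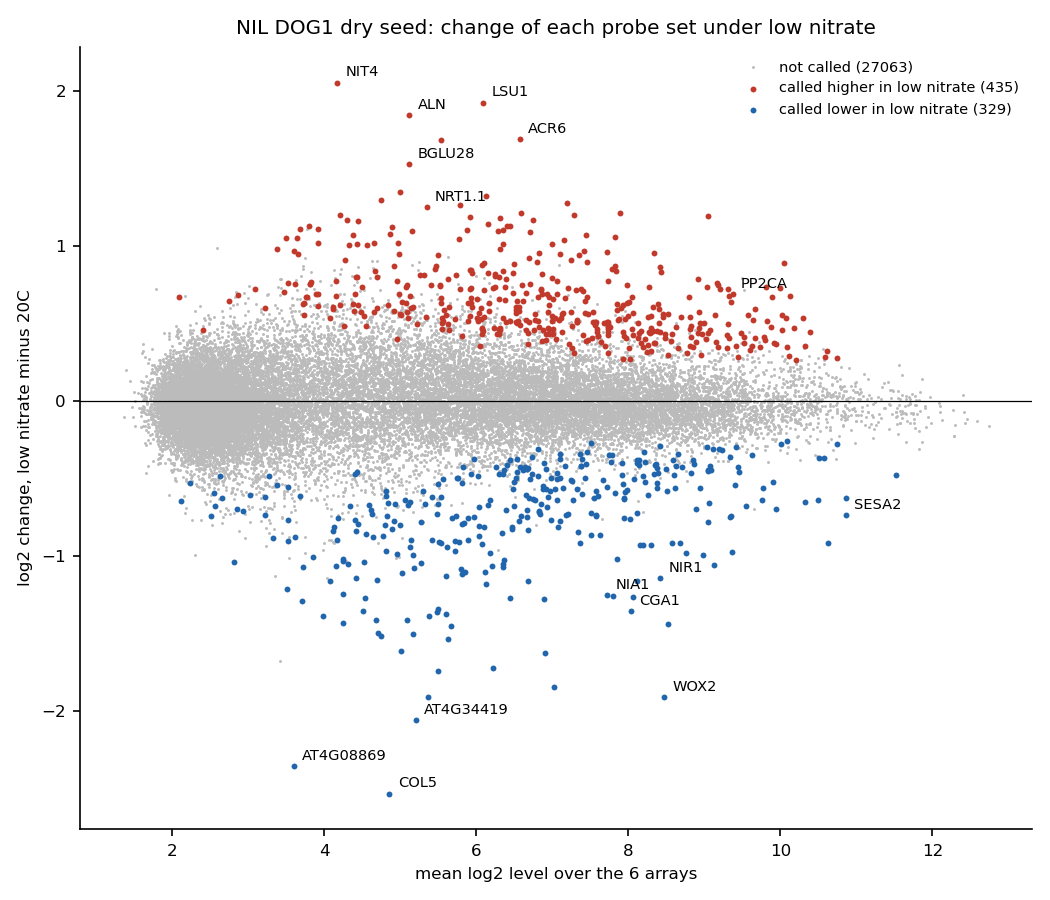
Log2 change (low nitrate minus 20C) of each of the 27827 probe sets against its mean log2 level over the 6 arrays, with the 435 probe sets called higher in red, the 329 called lower in blue and those not called in grey. Most calls lie to the right of 4.29, the level of the median probe set.

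The strongest rise was that of NIT4, a nitrilase that detoxifies beta-cyanoalanine, a product of cyanide. Its level was 5.17, 5.21 and 5.22 under low nitrate, against 2.84, 3.20 and 3.40 at 20C. The 3 low-nitrate arrays lay within 0.1 of each other and far above every 20C array, a 4.15-fold difference (2.05 ± 0.32, adjusted p = 8.36e-05). LSU1, known to rise when sulphur is short, followed with 7.24, 7.15 and 6.76 under low nitrate, against 4.82, 5.17 and 5.39 at 20C (3.79-fold, 1.92 ± 0.36, adjusted p = 0.00104). ALN encodes allantoinase, which opens the ring of the nitrogen-rich purine product allantoin. Its values were 6.28, 6.02 and 5.83 under low nitrate, against 3.99, 4.26 and 4.35 at 20C (3.59-fold, 1.84 ± 0.25, adjusted p = 1.52e-05). ACR6, an ACT domain repeat protein of a family whose domain is known for binding amino acids, had 7.40, 7.36 and 7.50 under low nitrate, against 5.63, 5.64 and 5.92 at 20C (3.23-fold, 1.69 ± 0.18, adjusted p = 5.34e-07). In each of these genes the lowest low-nitrate array stood more than 1 log2 unit above the highest 20C array. Groups without overlap were a condition for the choice of these genes and of the largest falls below.

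BGLU28, a beta-glucosidase induced by sulphur shortage, had 5.87, 6.37 and 5.41 under low nitrate, against 4.65, 4.24 and 4.18 at 20C (2.88-fold, 1.53 ± 0.36, adjusted p = 0.0107). Its low-nitrate arrays were further apart than those of NIT4, and it did not pass without low-nitrate array 2 (1.28, adjusted p = 0.108), 20C array 2 (1.47, adjusted p = 0.0592) or 20C array 3 (1.44, adjusted p = 0.0507). DOX1, an alpha-dioxygenase that oxidises fatty acids, had 5.48, 5.74 and 5.80 under low nitrate, against 4.90, 3.95 and 4.13 at 20C (1.35 ± 0.28, adjusted p = 0.0031), with the 20C array 1 well above the other two. The growth-regulating factor gene GRF7 (AT5G53660) had 7.52, 8.13 and 7.86 under low nitrate, against 6.61, 6.64 and 6.42 at 20C (2.43-fold, 1.28 ± 0.13, adjusted p = 1.32e-07). Its SE was the smallest of the 12 largest rises. AR781 had 5.26, 5.10 and 5.84 under low nitrate, against 3.91, 4.05 and 4.37 at 20C (1.29 ± 0.34, adjusted p = 0.027), and its call was lost without low-nitrate array 1 (1.36, adjusted p = 0.0541), low-nitrate array 3 (1.07, adjusted p = 0.176), 20C array 1 (1.19, adjusted p = 0.126) or 20C array 2 (1.27, adjusted p = 0.0998).

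The remaining genes among the 12 largest rises were AT4G01985 (1.68 ± 0.35, adjusted p = 0.0032), AT3G15250 (1.32 ± 0.20, adjusted p = 5.49e-05), AT1G70680 (1.27 ± 0.22, adjusted p = 0.00042) and the nitrate transporter gene NRT1.1, described below. The gene table used here gives no symbol for the first 3 of these. DOX1 (adjusted p = 0.0616) and AT1G70680 (adjusted p = 0.0543) did not pass with only the 6 arrays. For 3 of the 12 (NIT4, ALN and AR781) the 20C level lay below the median probe set.

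The strongest fall was that of COL5, of the CONSTANS-like family of zinc-finger factors. It had 3.54, 2.77 and 4.47 under low nitrate, against 6.25, 6.21 and 5.91 at 20C, a 5.77-fold lower level (-2.53 ± 0.35, adjusted p = 2e-05). The low-nitrate arrays were spread over 1.7 log2 units, yet the highest of them lay below every 20C array. WOX2, a homeobox gene that patterns the apical part of the early embryo, had 7.96, 6.85 and 7.75 under low nitrate, against 9.46, 9.32 and 9.51 at 20C (3.76-fold lower, -1.91 ± 0.34, adjusted p = 0.00058). WAVH1, a homolog of the WAV3 ubiquitin ligase, had 6.05, 6.08 and 6.16 under low nitrate, against 7.73, 7.87 and 7.56 at 20C (3.08-fold lower, -1.62 ± 0.20, adjusted p = 4.55e-06), and CIPK21, a kinase that acts with calcium sensors of the CBL family, had 4.71, 3.99 and 3.90 under low nitrate, against 5.91, 6.08 and 5.45 at 20C (3.06-fold lower, -1.61 ± 0.21, adjusted p = 6.39e-06). Groups that do not overlap were a condition for the choice of these genes.

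HB1, the class I hemoglobin, which removes nitric oxide and is known to be induced by nitrate, had 4.46, 3.62 and 3.89 under low nitrate, against 4.75, 5.79 and 5.97 at 20C (-1.52 ± 0.36, adjusted p = 0.0134). The 20C array 1 lay close to the low-nitrate arrays, and the call was lost without low-nitrate array 2 (-1.33, adjusted p = 0.107), low-nitrate array 3 (-1.47, adjusted p = 0.0623), 20C array 2 (-1.37, adjusted p = 0.0923) or 20C array 3 (-1.28, adjusted p = 0.0966). AT4G08869 had 2.41, 2.20 and 2.67 under low nitrate, against 5.69, 5.70 and 2.95 at 20C (-2.35 ± 0.59, adjusted p = 0.0196). Here 20C array 3 was nearly as low as the low-nitrate arrays. The call was lost without low-nitrate array 1 (-2.34, adjusted p = 0.0601), low-nitrate array 2 (-2.24, adjusted p = 0.0932), 20C array 1 (-1.89, adjusted p = 0.162) or 20C array 2 (-1.89, adjusted p = 0.17). Unnamed loci made up the other falls: AT4G34419 (-2.05 ± 0.28, adjusted p = 1.9e-05), AT4G39780 (-1.91 ± 0.20, adjusted p = 4.71e-07), AT5G05965 (-1.84 ± 0.30, adjusted p = 0.000208), AT5G62720 (-1.74 ± 0.30, adjusted p = 0.000438), AT5G42830 (-1.72 ± 0.19, adjusted p = 8.95e-07) and AT5G26010 (-1.53 ± 0.21, adjusted p = 2.14e-05). With only the 6 arrays in the fit HB1 (adjusted p = 0.116), AT4G08869 (adjusted p = 0.209), AT5G05965 (adjusted p = 0.0784) and AT5G26010 (adjusted p = 0.0632) did not pass. In 5 of the 12 largest falls (COL5, AT4G08869, AT4G34419, CIPK21 and HB1) the low-nitrate level was below the median probe set.

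**Figure D2:**
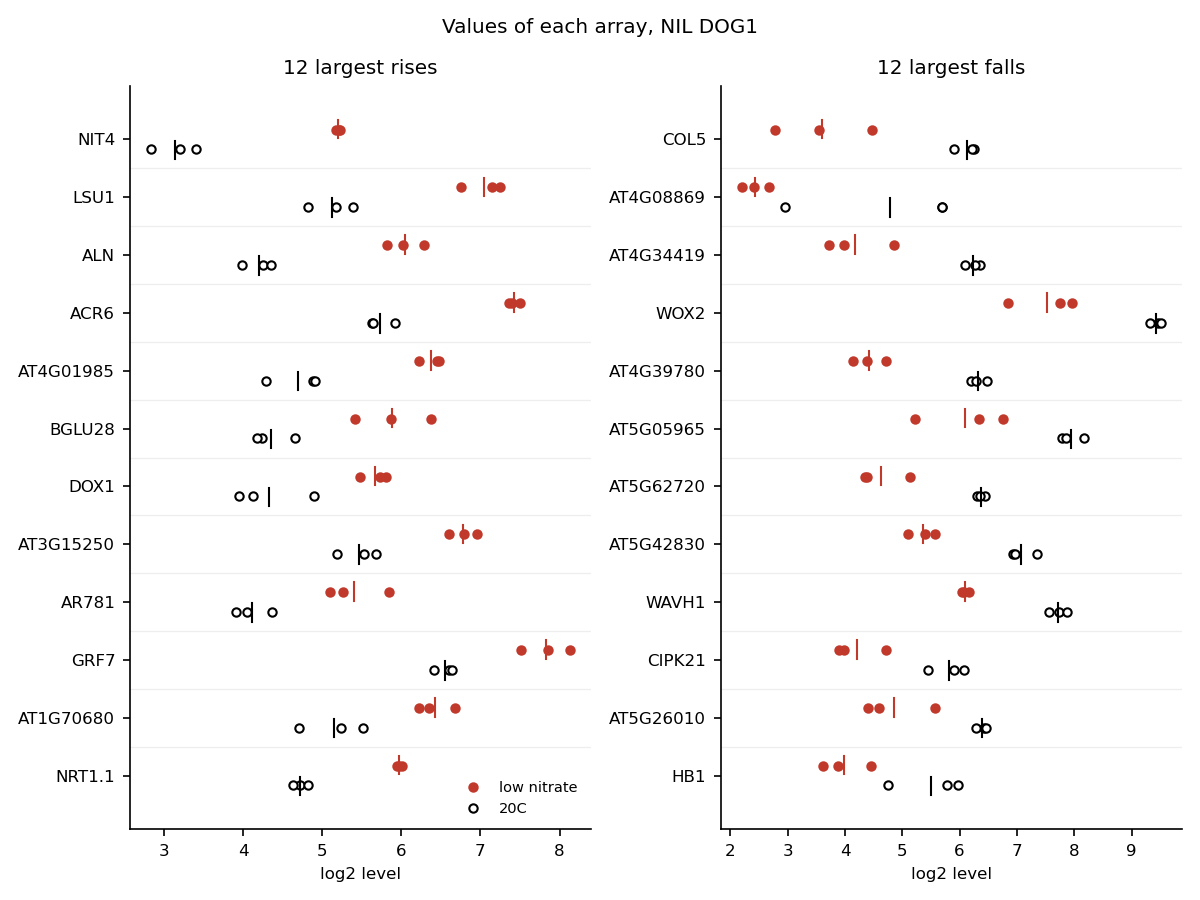
Log2 level on each of the 3 low-nitrate arrays (filled red circles) and the 3 20C arrays (open circles) for the 12 called genes that rose most and the 12 that fell most, with vertical bars at the group means. Groups that do not overlap were a condition for the choice of these genes, and 20C array 3 of AT4G08869 and 20C array 1 of HB1 stand close to the low-nitrate values.

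The counts in the gene lists below stand beside 2.75% called over all probe sets and 5.00% over those above the median level. Genes of nitrogen assimilation fell more often than they rose. Of 24 members 6 fell and 2 rose, and the list's median change was -0.24, against -0.02 over all probe sets. The falls began with the enzymes of nitrate reduction. The nitrate reductase gene NIA1 had 7.39, 6.59 and 7.31 under low nitrate, against 8.21, 8.36 and 8.48 at 20C (2.38-fold lower, -1.25 ± 0.23, adjusted p = 0.000687). NIR1, which encodes nitrite reductase, had 8.34, 7.35 and 7.88 under low nitrate, against 8.85, 9.16 and 8.98 at 20C (2.2-fold lower, -1.14 ± 0.23, adjusted p = 0.0027). UPM1, whose enzyme makes a precursor of siroheme, the cofactor of nitrite reductase, had 7.91, 7.32 and 7.39 under low nitrate, against 8.68, 8.63 and 8.79 at 20C (2.23-fold lower, -1.16 ± 0.17, adjusted p = 3.06e-05). Low-nitrate array 2 was the lowest array for each of these 3 genes, and no low-nitrate array reached the 20C range.

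The other falls were in genes that supply the electrons for nitrite reduction in non-green tissue. The plastid glucose 6-phosphate dehydrogenase gene G6PD2 had 6.08, 5.61 and 6.04 under low nitrate, against 6.86, 6.71 and 6.71 at 20C (-0.85 ± 0.18, adjusted p = 0.00318). The ferredoxin reductase gene RFNR1 had 6.10, 6.42 and 6.26 under low nitrate, against 7.20, 6.95 and 7.14 at 20C (-0.83 ± 0.16, adjusted p = 0.00157), and the ferredoxin gene FD3 had 10.37, 9.96 and 10.22 under low nitrate, against 10.74, 10.92 and 10.81 at 20C (-0.64 ± 0.10, adjusted p = 0.00012). RFNR2, a second ferredoxin reductase gene, was lower by a similar size and did not pass (-0.73 ± 0.23, adjusted p = 0.0878). The other nitrate reductase gene, NIA2, was dim, at 2.25, 2.40 and 2.57 under low nitrate, against 2.45, 2.99 and 3.32 at 20C, and did not pass (-0.51 ± 0.24, adjusted p = 0.372). Without low-nitrate array 2 the list had 4 falls, since NIR1 (-0.89, adjusted p = 0.0584) and G6PD2 (-0.70, adjusted p = 0.0558) did not pass then. The fit of only the 6 arrays gave 3 falls and 1 rise: NIA1 (adjusted p = 0.0527), NIR1 (adjusted p = 0.0879), G6PD2 (adjusted p = 0.054) and FD3 (adjusted p = 0.0858) did not pass, UPM1 and RFNR1 did, and RFNR2 passed (adjusted p = 0.0479).

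Enzymes that build ammonium into amino acids went the other way or were not called. GLN1;1, a cytosolic glutamine synthetase, had 8.27, 8.20 and 8.17 under low nitrate, against 7.31, 7.34 and 7.42 at 20C (1.81-fold, 0.85 ± 0.17, adjusted p = 0.00214). GLU2, a ferredoxin-dependent glutamate synthase, was higher by 0.35 ± 0.10, adjusted p = 0.0398, and it did not pass without low-nitrate array 1, low-nitrate array 2, low-nitrate array 3, 20C array 1 or 20C array 2 (0.29 to 0.39, adjusted p from 0.0645 to 0.247), nor with only the 6 arrays (adjusted p = 0.216). The other glutamine synthetase genes (GLN1;2 to GLN1;5 and GLN2) did not pass, with changes between -0.48 and 0.30. Neither did the asparagine synthetase genes: ASN1, among the brightest genes of the list, differed by 0.02 ± 0.10, adjusted p = 0.967, ASN2 by -0.19 ± 0.26 and ASN3 by 0.35 ± 0.20.

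Of 14 nitrate transporter genes 3 rose, none fell by limma, and the median change was 0.09. NRT1.1, a transporter and nitrate sensor, had 5.97, 5.95 and 6.01 under low nitrate, against 4.72, 4.63 and 4.83 at 20C (2.38-fold, 1.25 ± 0.21, adjusted p = 0.00024). All 3 low-nitrate arrays were more than 1 log2 unit above the 20C arrays. NRT2.5, a high-affinity transporter of nitrogen-starved plants that is also known in seed, had 6.37, 6.75 and 6.65 under low nitrate, against 5.98, 5.81 and 5.78 at 20C (0.73 ± 0.16, adjusted p = 0.0077), and was not called without low-nitrate array 2 (0.65, adjusted p = 0.0705). NRT1.8, which retrieves nitrate from the xylem, was bright and changed little, with 10.73, 10.71 and 10.74 under low nitrate, against 10.50, 10.38 and 10.46 at 20C (0.28 ± 0.08, adjusted p = 0.0401). It did not pass whichever of the 6 arrays was left out (0.25 to 0.31, adjusted p from 0.0651 to 0.195). NRT2.7, which loads nitrate into seed vacuoles, did not pass (-0.14 ± 0.09, adjusted p = 0.589). NRT1.1 alone was called with only the 6 arrays, where NRT2.5 (adjusted p = 0.0578) and NRT1.8 (adjusted p = 0.253) did not pass. NRT2.1, NRT2.2 and NRT2.4 of the root were dim, with low-nitrate means below the median probe set.

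Nitrate signalling genes moved both ways, with 2 higher and 2 lower of 20 and a median of -0.11. NLP8, the NLP factor that nitrate-promoted germination requires, had 9.45, 9.60 and 9.64 under low nitrate, against 8.71, 8.81 and 8.91 at 20C (1.68-fold, 0.75 ± 0.10, adjusted p = 5.51e-06). NLP9, of the same family, had 7.44, 7.58 and 7.33 under low nitrate, against 6.66, 6.58 and 6.80 at 20C (0.78 ± 0.11, adjusted p = 1.71e-05). NLP6 (0.07 ± 0.19) and NLP7 (0.10 ± 0.10), also of this family, did not pass. LBD39, a repressor of nitrate-responsive genes, had 4.08, 3.83 and 4.02 under low nitrate, against 5.86, 5.29 and 5.00 at 20C (2.65-fold lower, -1.41 ± 0.20, adjusted p = 2.76e-05), and AT1G68670 had 7.62, 7.11 and 7.30 under low nitrate, against 8.44, 8.24 and 8.40 at 20C (-1.01 ± 0.17, adjusted p = 0.000354). LBD37 (-0.39 ± 0.14, adjusted p = 0.166) and BT2 (-0.91 ± 0.33, adjusted p = 0.166) did not pass. Their low-nitrate and 20C arrays did not overlap, as was the case in 19.9% of all probe sets. The 4 calls of this list held whichever of the 6 arrays was left out, and with only the 6 arrays in the fit.

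Sulphur limitation genes had the most rises of the 29 lists, which were written with earlier results of these data known. Of 17 members 8 rose and none fell by limma, 15 had a positive difference, and the median change was 0.39, the highest of the 29 lists. LSU1 and BGLU28 led them. SULTR1;2, the sulphate uptake transporter, had 6.49, 7.14 and 6.87 under low nitrate, against 5.78, 5.63 and 5.79 at 20C (2.14-fold, 1.10 ± 0.27, adjusted p = 0.0169). SDI1, which holds back glucosinolate synthesis when sulphur is short, had 6.34, 6.69 and 5.89 under low nitrate, against 5.11, 5.45 and 5.21 at 20C (2.07-fold, 1.05 ± 0.18, adjusted p = 0.000358), and LSU2 had 6.18, 5.99 and 5.91 under low nitrate, against 5.21, 5.29 and 5.23 at 20C (0.79 ± 0.13, adjusted p = 0.000184). SHM7 (0.55 ± 0.11, adjusted p = 0.00175), a serine hydroxymethyltransferase, and the adenylyl sulphate reductases APR2 (0.39 ± 0.09, adjusted p = 0.0137) and APR3 (0.56 ± 0.16, adjusted p = 0.0463) completed the called members. LSU3 (0.34 ± 0.17, adjusted p = 0.405) and APR1 (0.54 ± 0.19, adjusted p = 0.144) did not pass.

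The count of sulphur genes fell to 4 without low-nitrate array 2 and to 5 without 20C array 2. SULTR1;2 was lost without low-nitrate array 2 (0.94, adjusted p = 0.13), low-nitrate array 3 (1.08, adjusted p = 0.0659) or 20C array 2 (1.04, adjusted p = 0.084), APR2 without low-nitrate array 1, low-nitrate array 2 or 20C array 1 (0.33 to 0.39, adjusted p from 0.0592 to 0.106) and APR3 without low-nitrate array 1, low-nitrate array 2, low-nitrate array 3, 20C array 1 or 20C array 2 (0.44 to 0.62, adjusted p from 0.063 to 0.296), beside the losses of BGLU28 given above. There were 4 sulphur calls with only the 6 arrays, where SDI1 (adjusted p = 0.0793), SHM7 (adjusted p = 0.11), APR2 (adjusted p = 0.172) and APR3 (adjusted p = 0.178) did not pass. Genes of phosphate limitation, another mineral shortage, had 0 of 14 called by limma, a median of 0.03 and changes between -0.39 (PHT1;4) and 0.19 (PHO1).

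**Figure D3:**
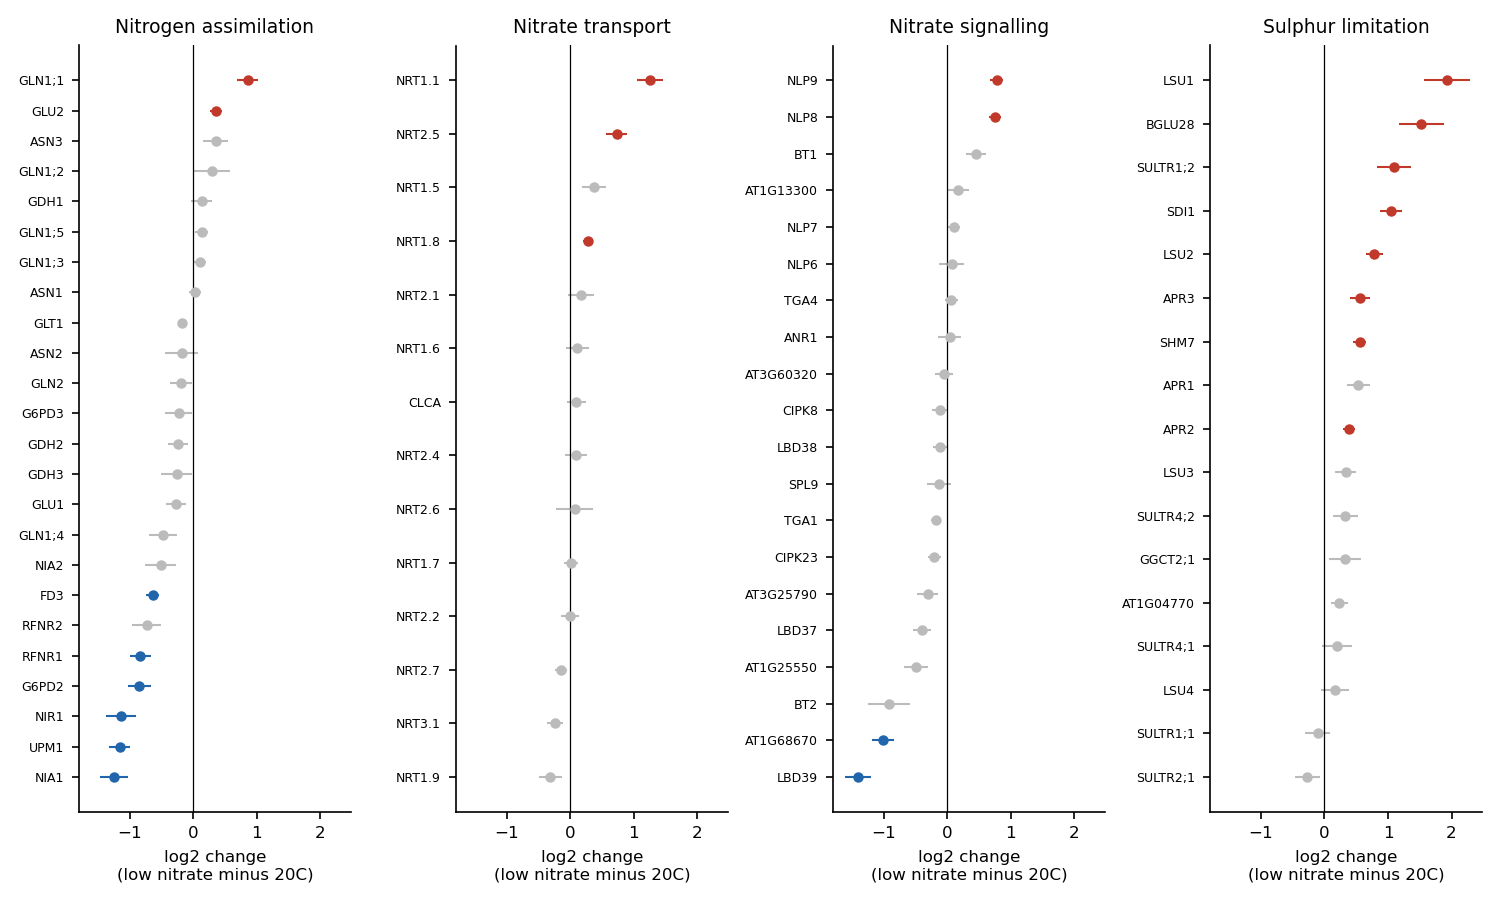
Log2 change (low nitrate minus 20C) with its SE as a horizontal bar for each member of 4 gene lists, with called members in red (higher) or blue (lower) and the others in grey. NIA1, UPM1 and NIR1 are at the bottom of the assimilation list, NRT1.1 leads the transporters, and 8 of 17 sulphur limitation genes are red.

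Among genes for other nitrogen compounds, ALN was the single called member of 18 for ammonium transport and ureide breakdown. That is 5.56% of the list, against 2.75% of all probe sets, and the list's median was 0.02. The next enzymes of allantoin breakdown, AAH (0.39 ± 0.14, adjusted p = 0.138) and UAH (0.30 ± 0.11, adjusted p = 0.208), did not pass. Their groups did not overlap, as in 19.9% of all probe sets. AMT1;1, an ammonium transporter, had 9.25, 9.18 and 9.23 under low nitrate, against 8.69, 8.74 and 8.75 at 20C and did not pass (0.49 ± 0.14, adjusted p = 0.063), although it passed among probe sets above the median level (adjusted p = 0.0281) and with a trended robust prior (adjusted p = 0.0359). Of 12 amino acid and peptide transporters 2 rose, and the median was 0.10. LHT1, an amino acid importer, had 10.03, 9.98 and 9.97 under low nitrate, against 9.52, 9.51 and 9.70 at 20C (0.41 ± 0.08, adjusted p = 0.00211). UMAMIT14, an amino acid exporter, had 3.69, 3.98 and 5.05 under low nitrate, against 2.67, 3.21 and 3.52 at 20C (1.11 ± 0.27, adjusted p = 0.0129), with low-nitrate array 3 far above the others, and was not called without low-nitrate array 3 (0.71, adjusted p = 0.203) or 20C array 1 (0.88, adjusted p = 0.137). Neither LHT1 (adjusted p = 0.133) nor UMAMIT14 (adjusted p = 0.26) passed with only the 6 arrays. NIT4 was the single called nitrilase of 4, and their median was -0.25. NIT1 (-0.38 ± 0.12, adjusted p = 0.0695) and NIT2 (-0.96 ± 0.33, adjusted p = 0.136), close relatives of each other whose probe sets could share signal, were lower and did not pass, except that NIT1 passed among probe sets above the median level (adjusted p = 0.0288) and with a trended robust prior (adjusted p = 0.0301).

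Several regulators tied to light and to leaf greening fell. The 9 GATA and CONSTANS-like genes had a median change of -0.15, and 3 fell: COL5, and the related GATA factor genes CGA1 and GNC, which promote chlorophyll formation and are known to be induced by nitrate and cytokinin. CGA1 had 7.63, 6.96 and 7.48 under low nitrate, against 8.60, 8.92 and 8.60 at 20C (2.55-fold lower, -1.35 ± 0.16, adjusted p = 2.73e-06), and GNC had 6.06, 5.56 and 5.94 under low nitrate, against 6.96, 6.64 and 7.01 at 20C (2.03-fold lower, -1.02 ± 0.14, adjusted p = 1.52e-05). These 3 calls held whichever of the 6 arrays was left out, and with only the 6 arrays in the fit. The other CONSTANS-like genes did not pass, among them COL4 (-0.02 ± 0.10), the brightest of them, and COL9 (-0.35 ± 0.14, adjusted p = 0.234). Of 6 type-A response regulators of cytokinin signalling and 3 cytokinin synthesis genes none was called by limma (0 of 9, all below the median level, with a median change of -0.09), the largest differences being those of ARR4 (-0.62 ± 0.31, adjusted p = 0.418) and ARR15 (0.54 ± 0.24, adjusted p = 0.325).

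Of 25 light signalling genes 3 fell and 1 rose, with a median of -0.06. PIF1, the factor that holds back germination in the dark, had 5.73, 5.76 and 5.59 under low nitrate, against 6.77, 6.66 and 6.09 at 20C (1.75-fold lower, -0.81 ± 0.16, adjusted p = 0.00179). PIF5, of the same family, had 4.94, 4.73 and 5.09 under low nitrate, against 6.41, 6.31 and 6.13 at 20C (2.58-fold lower, -1.37 ± 0.19, adjusted p = 2.58e-05). Smaller calls were those of PHYA, the far-red photoreceptor (-0.39 ± 0.11, adjusted p = 0.0441), and PIF6, known for its expression in developing seed (0.41 ± 0.11, adjusted p = 0.0444). PHYA did not pass without low-nitrate array 2, low-nitrate array 3, 20C array 1, 20C array 2 or 20C array 3 (-0.34 to -0.44, adjusted p from 0.0527 to 0.209), and PIF6 did not pass without low-nitrate array 1, low-nitrate array 2, low-nitrate array 3, 20C array 1 or 20C array 2 (0.30 to 0.45, adjusted p from 0.0669 to 0.319). PIF5 alone of this list was called with only the 6 arrays, where PIF1 (adjusted p = 0.115), PHYA (adjusted p = 0.171) and PIF6 (adjusted p = 0.241) did not pass. HY5, which promotes light responses, was lower and did not pass (-0.31 ± 0.11, adjusted p = 0.164).

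Clock genes had 3 lower and none higher of 20 by limma, with a median of 0.02. PRR5, an evening repressor of the clock, had 3.80, 3.44 and 3.84 under low nitrate, against 4.92, 4.62 and 4.05 at 20C (-0.84 ± 0.19, adjusted p = 0.00922). LHY, a morning gene, had 2.97, 2.94 and 2.68 under low nitrate, against 3.64, 3.58 and 3.57 at 20C (-0.74 ± 0.18, adjusted p = 0.0175), below the median probe set in both groups, and RVE1, a related factor that promotes dormancy, had 5.95, 5.55 and 5.86 under low nitrate, against 6.50, 6.15 and 6.16 at 20C (-0.48 ± 0.13, adjusted p = 0.0417). None of these calls was stable: PRR5 was lost without low-nitrate array 2 (-0.71, adjusted p = 0.0945), 20C array 1 (-0.64, adjusted p = 0.123) or 20C array 2 (-0.79, adjusted p = 0.0573), LHY without low-nitrate array 3, 20C array 1 or 20C array 2 (-0.65 to -0.75, adjusted p from 0.0616 to 0.115) and RVE1 without low-nitrate array 2, low-nitrate array 3, 20C array 1 or 20C array 2 (-0.37 to -0.54, adjusted p from 0.062 to 0.3). The counts of the list were 0 without 20C array 1 or 20C array 2, and LHY was its 1 call with only the 6 arrays, where PRR5 (adjusted p = 0.177) and RVE1 (adjusted p = 0.234) did not pass.

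The gene DOG1 had 8.32, 8.12 and 8.13 under low nitrate, against 7.61, 7.61 and 7.72 at 20C. Every low-nitrate array was above every 20C array, and groups without overlap were found in 19.9% of all probe sets. The difference was 1.46-fold (0.55 ± 0.17), but it did not pass over all probe sets in the fit without a block (adjusted p = 0.0878). With the replicate number as a block in the fit of all 44 arrays it passed (adjusted p = 0.0332). It also passed, without a block, where only probe sets above the median level were tested (adjusted p = 0.0419). Of the 25 dormancy regulators 1 was called (4%, against 2.75% of all probe sets), and the median was 0.05. FUS3, a master factor of seed maturation, had 6.36, 6.64 and 6.65 under low nitrate, against 6.28, 5.81 and 6.12 at 20C (0.47 ± 0.13, adjusted p = 0.0378), and did not pass without low-nitrate array 2, low-nitrate array 3, 20C array 2 or 20C array 3 (0.34 to 0.50, adjusted p from 0.0682 to 0.3), nor with only the 6 arrays (adjusted p = 0.249). MFT, which regulates germination through ABA and gibberellin, had 8.41, 8.89 and 8.91 under low nitrate, against 8.22, 8.15 and 8.71 at 20C and did not pass (0.37 ± 0.13, adjusted p = 0.154).

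Genes of ABA metabolism had 1 call in each direction, with medians of 0.06 over 10 synthesis genes and 0.02 over 4 breakdown genes. CYP707A2, which breaks ABA down in seed, was lower, with 7.02, 6.61 and 6.81 under low nitrate, against 7.59, 7.47 and 7.58 at 20C (1.66-fold, -0.73 ± 0.15, adjusted p = 0.00269), and this call held whichever of the 6 arrays was left out but not with only the 6 arrays in the fit (adjusted p = 0.053). NCED3, of the rate-limiting step of ABA synthesis, had 5.44, 5.42 and 5.54 under low nitrate, against 4.67, 4.25 and 4.62 at 20C (1.93-fold, 0.95 ± 0.24, adjusted p = 0.0174), and was lost without low-nitrate array 1, low-nitrate array 2, low-nitrate array 3 or 20C array 2 (0.82 to 0.98, adjusted p from 0.0507 to 0.131). The other 9 synthesis genes and the other 3 breakdown genes did not pass.

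In ABA signalling 6 of 33 genes rose and 2 fell, and the median change was 0.11. Of the rises 4 were clade A phosphatases, the negative regulators of the pathway. HAI2 had 9.25, 9.46 and 9.22 under low nitrate, against 8.52, 8.41 and 8.64 at 20C (1.73-fold, 0.79 ± 0.12, adjusted p = 4.09e-05). ABI2 had 9.42, 9.39 and 9.41 under low nitrate, against 8.63, 8.61 and 8.77 at 20C (1.67-fold, 0.74 ± 0.10, adjusted p = 2.51e-05), and PP2CA had 9.68, 9.75 and 9.73 under low nitrate, against 8.89, 8.98 and 9.21 at 20C (0.69 ± 0.08, adjusted p = 1.95e-06). The low-nitrate arrays of these 3 bright genes lay close together and clear of the 20C arrays. HAI1 (0.66 ± 0.17, adjusted p = 0.0196), the receptor gene PYR1 (0.39 ± 0.10, adjusted p = 0.0344) and the transcription factor gene ABF4 (0.45 ± 0.12, adjusted p = 0.0278) rose by less or with a larger SE.

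The falls in ABA signalling were those of ABI4 and PYL8. ABI4, a factor of ABA and sugar responses in seed, had 4.53, 4.01 and 4.47 under low nitrate, against 5.60, 5.12 and 4.92 at 20C (1.83-fold lower, -0.87 ± 0.18, adjusted p = 0.00357). PYL8, an ABA receptor, had 3.84, 4.23 and 3.92 under low nitrate, against 4.77, 4.91 and 4.82 at 20C (-0.83 ± 0.19, adjusted p = 0.00712). Several of these calls depended on single arrays. HAI1 was lost without low-nitrate array 2, low-nitrate array 3, 20C array 1, 20C array 2 or 20C array 3 (0.62 to 0.68, adjusted p from 0.0547 to 0.0914), PYR1 whichever of the 6 arrays was left out (0.37 to 0.40, adjusted p from 0.068 to 0.125), ABF4 without low-nitrate array 1, low-nitrate array 2 or 20C array 1 (0.34 to 0.42, adjusted p from 0.121 to 0.229), ABI4 without low-nitrate array 2 (-0.71, adjusted p = 0.0625) or 20C array 1 (-0.68, adjusted p = 0.0643) and PYL8 without low-nitrate array 1 (-0.76, adjusted p = 0.05). The count of rises was 3 without low-nitrate array 2 or 20C array 1. PYR1 (adjusted p = 0.121), ABF4 (adjusted p = 0.206) and ABI4 (adjusted p = 0.134) did not pass with only the 6 arrays. Gibberellin genes had 1 call of 26 (3.85%, against 2.75% of all probe sets) and a median of -0.02. The called gene GA2OX6, which inactivates gibberellin, had 4.84, 4.93 and 4.42 under low nitrate, against 3.65, 3.81 and 4.01 at 20C (1.88-fold, 0.91 ± 0.19, adjusted p = 0.00362), with 20C levels below the median probe set. It did not pass with only the 6 arrays (adjusted p = 0.0616).

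Seed storage and oil body genes had 2 lower and 1 higher of 15, with a median of -0.12 and 13 negative differences. The 2S albumin gene SESA2 had 10.61, 10.40 and 10.48 under low nitrate, against 11.28, 11.32 and 11.10 at 20C (1.67-fold lower, -0.74 ± 0.15, adjusted p = 0.00266), and SESA1 had 11.45, 11.19 and 11.20 under low nitrate, against 11.65, 11.80 and 11.82 at 20C (-0.48 ± 0.12, adjusted p = 0.0161). Albumin genes are related in sequence, so their probe sets could share signal. SESA3 (-0.18 ± 0.10, adjusted p = 0.506), SESA4 (-0.26 ± 0.17, adjusted p = 0.608) and SESA5 (-0.08 ± 0.09, adjusted p = 0.822) did not pass. The oleosin gene OLEO3 had 10.23, 10.15 and 10.03 under low nitrate, against 9.81, 9.77 and 9.72 at 20C (0.37 ± 0.09, adjusted p = 0.0116). SESA1 was lost without low-nitrate array 2, low-nitrate array 3, 20C array 2 or 20C array 3 (-0.43 to -0.46, adjusted p from 0.0725 to 0.106) and OLEO3 without low-nitrate array 1, low-nitrate array 2 or 20C array 3 (0.32 to 0.36, adjusted p from 0.0553 to 0.0826). SESA2 was the 1 call of the list with only the 6 arrays, where SESA1 (adjusted p = 0.135) and OLEO3 (adjusted p = 0.176) did not pass. None of 17 LEA genes was called by limma, their median was -0.07, and their changes lay between -0.17 (M10) and 0.17 (AT3G22490).

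Heat shock genes had 4 higher and none lower of 23 by limma, and a median of 0.22. HSP23.6-MITO, HSP17.6II and ATHSP22.0 encode small heat shock proteins, chaperones that seed accumulates during maturation. HSP23.6-MITO, of mitochondria, had 8.36, 8.61 and 8.50 under low nitrate, against 6.98, 7.43 and 7.43 at 20C (2.32-fold, 1.21 ± 0.19, adjusted p = 9e-05). HSP17.6II had 8.32, 8.31 and 8.14 under low nitrate, against 7.16, 7.71 and 7.39 at 20C (0.84 ± 0.17, adjusted p = 0.00305) and ATHSP22.0 had 5.91, 5.99 and 5.76 under low nitrate, against 4.83, 5.26 and 5.02 at 20C (0.85 ± 0.20, adjusted p = 0.0102). AT5G51440 followed (0.54 ± 0.15, adjusted p = 0.0486). The seed heat shock factor gene HSFA9 did not pass (0.22 ± 0.09, adjusted p = 0.253), nor did HSP101 (0.13 ± 0.11, adjusted p = 0.712). ATHSP22.0 was lost without low-nitrate array 2 (0.80, adjusted p = 0.0656) or 20C array 1 (0.74, adjusted p = 0.0837), and AT5G51440 whichever of the 6 arrays was left out (0.50 to 0.58, adjusted p from 0.0902 to 0.174), so that 2 calls were left without low-nitrate array 2 or 20C array 1. There were also 2 with only the 6 arrays, where HSP17.6II (adjusted p = 0.062) and AT5G51440 (adjusted p = 0.0605) did not pass.

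Sugar-related genes had 3 lower and 1 higher of 19, with a median of 0.03. DIN1, a gene induced by darkness and sugar starvation, had 8.64, 8.28 and 8.56 under low nitrate, against 9.55, 9.43 and 9.47 at 20C (1.99-fold lower, -0.99 ± 0.14, adjusted p = 1.71e-05). TPS8 had 7.95, 7.53 and 7.61 under low nitrate, against 8.55, 8.72 and 8.59 at 20C (1.9-fold lower, -0.92 ± 0.14, adjusted p = 4.07e-05), and TPS9 had 6.50, 6.62 and 6.69 under low nitrate, against 7.67, 7.28 and 7.16 at 20C (-0.77 ± 0.13, adjusted p = 0.000354). Both belong to the trehalose phosphate synthase family, in a class known for regulation rather than for enzyme activity. SWEET10, a sugar exporter, was higher, with 4.15, 3.94 and 3.98 under low nitrate, against 2.88, 3.08 and 2.94 at 20C (2.08-fold, 1.05 ± 0.22, adjusted p = 0.00429), from a 20C level below the median probe set. All 4 calls held whichever of the 6 arrays was left out, and with only the 6 arrays in the fit TPS9 did not pass (adjusted p = 0.0763) while the other 3 did.

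Cold response genes had 1 call in each direction of 16. CBF4, a factor of the CBF family that is known to respond to drought rather than cold, had 4.77, 5.11 and 4.54 under low nitrate, against 3.44, 3.77 and 3.62 at 20C (2.29-fold, 1.20 ± 0.24, adjusted p = 0.00194). Its 20C level lay below the median probe set. CBF1, CBF2 and CBF3 were dim as well and differed by 0.05 ± 0.14, 0.10 ± 0.22 and -0.03 ± 0.12. GRP7, an RNA-binding protein regulated by the clock and by cold, had 8.77, 8.70 and 8.76 under low nitrate, against 9.41, 9.49 and 9.29 at 20C (1.57-fold lower, -0.65 ± 0.14, adjusted p = 0.00565). Of 18 ethylene genes, with a median of 0.01, 1 was called (5.56%, against 2.75% of all probe sets). This was the ACC oxidase gene ACO1 (AT2G19590), with 4.28, 4.79 and 4.21 under low nitrate, against 3.79, 3.31 and 3.12 at 20C (1.02 ± 0.26, adjusted p = 0.0246). It was lost without low-nitrate array 2 (0.84, adjusted p = 0.186), 20C array 2 (0.97, adjusted p = 0.106) or 20C array 3 (0.88, adjusted p = 0.131), and with only the 6 arrays (adjusted p = 0.0977). EFE, another gene of ethylene formation, named after its values were seen, lay just outside the threshold, with 4.44, 4.42 and 4.58 under low nitrate, against 5.82, 5.40 and 5.24 at 20C (-1.01 ± 0.29, adjusted p = 0.05005). It passed with only the 6 arrays (adjusted p = 0.0418), so that the 1 call of the list was then a fall and not a rise. EFE also passed among probe sets above the median level (adjusted p = 0.0247) and with a trended robust prior (adjusted p = 0.0455). Of 21 leaf photosynthesis genes, with a median of -0.07, LHCB4.1, a light-harvesting protein, was higher (0.43 ± 0.10, adjusted p = 0.00709) and RBCS1A, a small subunit of Rubisco, lower (-0.61 ± 0.17, adjusted p = 0.0401). RBCS1A was lost without low-nitrate array 1, low-nitrate array 2, low-nitrate array 3, 20C array 1 or 20C array 2 (-0.49 to -0.66, adjusted p from 0.0652 to 0.244), and neither gene passed with only the 6 arrays (adjusted p = 0.112 for LHCB4.1, adjusted p = 0.115 for RBCS1A).

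The lists for flavonoids (22 genes) and antioxidant enzymes (6 genes) had no call by limma, as had those for seed coat, endosperm and pollen. Their medians were -0.02 for flavonoids, -0.06 for the seed coat, -0.02 for the endosperm and -0.08 for pollen. The largest differences there were -0.35 ± 0.20 for MYB111 and -0.29 ± 0.13 for TT8, both of flavonoid synthesis, -0.30 ± 0.09 for the catalase gene CAT2 (AT4G35090) and 0.22 ± 0.10 for CAT1. They were 0.26 ± 0.22 for PER36 and -0.25 ± 0.13 for MUM2 of the seed coat, -0.37 ± 0.23 for PHE1 and 0.34 ± 0.19 for ZOU of the endosperm, and -0.56 ± 0.53 for AT5G07410 and -0.43 ± 0.60 for AGP23 of pollen. Adjusted p-values of these 10 genes lay between 0.0805 and 0.865. The lowest was that of CAT2, which passed among probe sets above the median level (adjusted p = 0.0302) and with a trended robust prior (adjusted p = 0.0282).

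**Figure D4:**
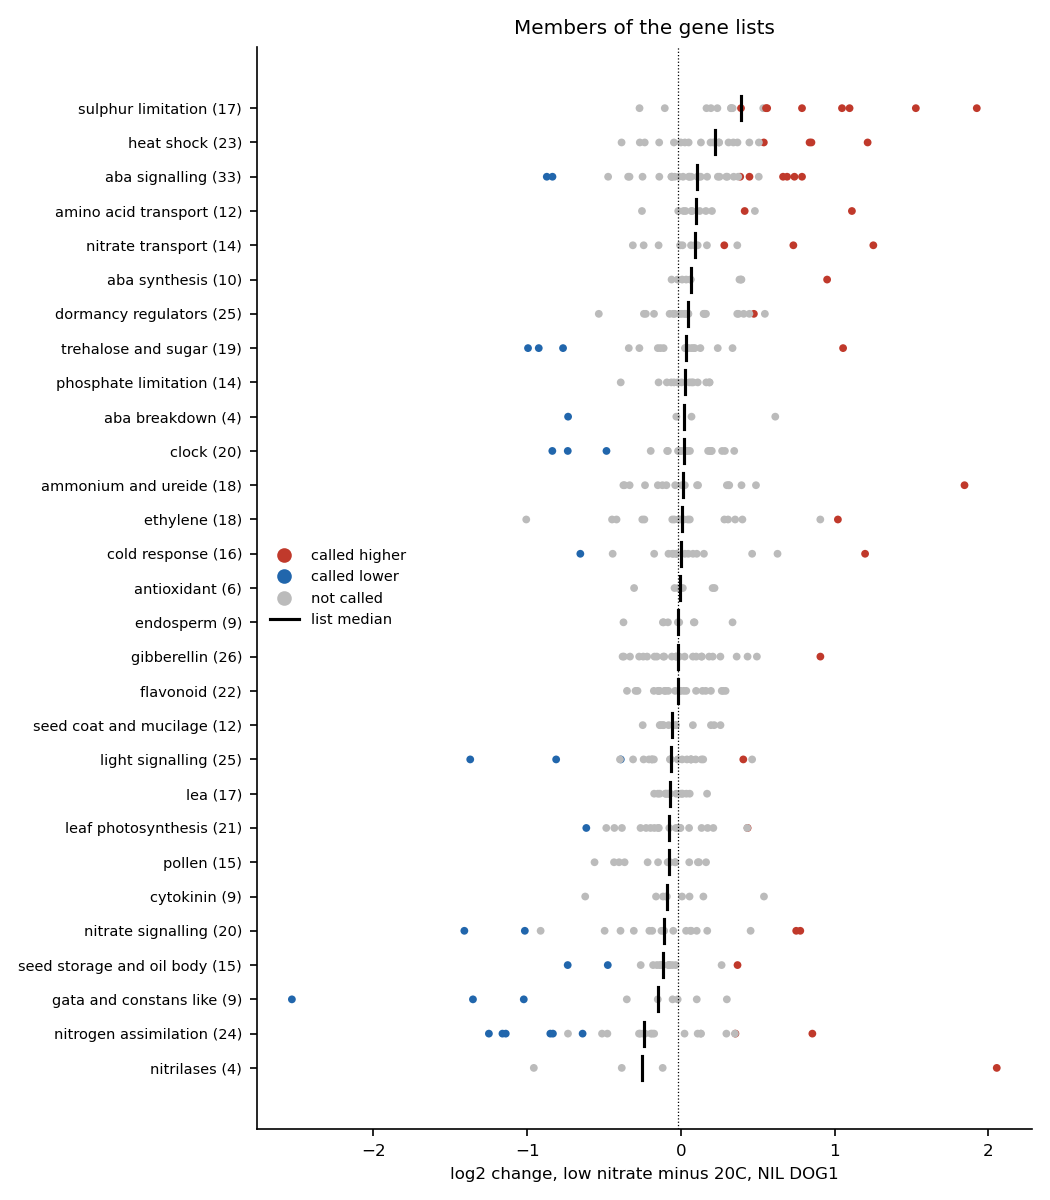
Log2 change (low nitrate minus 20C) of each member of the 29 gene lists, with list sizes in brackets, called members in red (higher) or blue (lower), the others in grey, list medians as black bars and the median of all probe sets as a dotted line. Sulphur limitation has the highest median, 0.39, and nitrogen assimilation a median of -0.24. The lists were written with earlier results of these data known.

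The response of NIL DOG1 was then set against that of the other lines. NIL DOG3 had 2 low-nitrate arrays and 3 at 20C, and NIL DOG6 had 3 of each. The lines share no arrays, although all groups share the estimate of the spread. In NIL DOG3, 824 probe sets were called (2.96%), and 396 of these were called in NIL DOG1 in the same direction, 51.8% of the NIL DOG1 calls and 48.1% of the NIL DOG3 calls. In NIL DOG6, 1272 were called (4.57%), and 427 were shared, 55.9% of the NIL DOG1 calls and 33.6% of the NIL DOG6 calls. No probe set was called in opposite directions, and 319 were called in all 3 lines.

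Of the 764 NIL DOG1 calls, 733 had the same sign in NIL DOG3 (95.9%, against 58.7% of all probe sets) and 745 in NIL DOG6 (97.5%, against 59.4%). The median ratio of the response in the other line to that in NIL DOG1 was 0.873 for NIL DOG3 and 0.795 for NIL DOG6. These genes were chosen by their change in NIL DOG1, which favours larger values there.

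A direct test of the response of NIL DOG1 against the mean response of NIL DOG3 and NIL DOG6 called 0 probe sets by limma (0%). At an unadjusted p under 0.05 there were 1520 (5.46%), and the smallest adjusted p was 0.342. Set against 1 line at a time, the response differed in 0 probe sets for NIL DOG3 (1361 at an unadjusted p under 0.05, smallest adjusted p 0.519) and in 0 for NIL DOG6 (1670, smallest adjusted p 0.154). These single-line tests were added after the data had been seen. With a median SE of 0.20 for the difference between responses, moderate differences between the lines could not be detected, and 260 genes called in NIL DOG1 by the threshold and in neither other line are therefore not shown to differ.

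The strongest rise and the strongest fall had like values in the 3 lines. NIT4 was higher by 2.05 ± 0.32 in NIL DOG1, 2.25 ± 0.35 in NIL DOG3 and 2.15 ± 0.32 in NIL DOG6, and COL5 lower, at -2.53 ± 0.35 in NIL DOG1, -2.60 ± 0.39 in NIL DOG3 and -2.44 ± 0.35 in NIL DOG6. Other genes differed more between lines in the size of their change. NIR1 had -1.14 ± 0.23 in NIL DOG1, -1.96 ± 0.26 in NIL DOG3 and -1.50 ± 0.23 in NIL DOG6 (difference 0.59 ± 0.29, adjusted p = 0.915). ALN had 1.84 ± 0.25 in NIL DOG1, 1.14 ± 0.28 in NIL DOG3 and 1.13 ± 0.25 in NIL DOG6 (difference 0.71 ± 0.31, adjusted p = 0.89). The DOG1 gene had 0.55 ± 0.17 in NIL DOG1, 1.00 ± 0.19 in NIL DOG3 and 0.74 ± 0.17 in NIL DOG6. It was called by limma in NIL DOG3 (adjusted p = 0.0013) and in NIL DOG6 (adjusted p = 0.00807). The difference between NIL DOG1 and the mean of the other lines was -0.32 ± 0.21, adjusted p = 0.929.

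Some large changes of NIL DOG1 were smaller or opposite in sign in 1 or both other lines, without passing the test of the difference. AR781 had 1.29 ± 0.34 in NIL DOG1, 0.07 ± 0.38 in NIL DOG3 and -1.06 ± 0.34 in NIL DOG6 (difference 1.79 ± 0.42, adjusted p = 0.5). AT1G70680 had 1.27 ± 0.22 in NIL DOG1, -0.04 ± 0.25 in NIL DOG3 and 0.39 ± 0.22 in NIL DOG6 (difference 1.09 ± 0.27, adjusted p = 0.551). For both genes NIL DOG1 had the highest change of the 3 lines. UMAMIT14 had 1.11 ± 0.27 in NIL DOG1, 0.09 ± 0.30 in NIL DOG3 and 0.10 ± 0.27 in NIL DOG6 (difference 1.02 ± 0.33, adjusted p = 0.764). DOX1 had 1.35 ± 0.28 in NIL DOG1, 0.46 ± 0.31 in NIL DOG3 and 0.48 ± 0.28 in NIL DOG6 (difference 0.88 ± 0.35, adjusted p = 0.847). The value of NIL DOG1 was the highest of the 3 for ALN and for DOX1. AT4G01985 had 1.68 ± 0.35 in NIL DOG1, 0.18 ± 0.39 in NIL DOG3 and 1.48 ± 0.35 in NIL DOG6 (difference 0.86 ± 0.44, adjusted p = 0.916). AT4G08869, the gene with the discordant 20C array, had -2.35 ± 0.59 in NIL DOG1, -0.13 ± 0.66 in NIL DOG3 and -0.49 ± 0.59 in NIL DOG6 (difference -2.04 ± 0.74, adjusted p = 0.841).

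Of the gene lists, 4 were set side by side in the 3 lines. Sulphur limitation genes had 8 higher in NIL DOG1, 7 in NIL DOG3 and 5 in NIL DOG6, and none lower. Nitrogen assimilation genes had 6 lower in NIL DOG1, 7 in NIL DOG3 and 7 in NIL DOG6. GATA and CONSTANS-like genes had 3 lower in NIL DOG1, 3 in NIL DOG3 and 4 in NIL DOG6. Heat shock genes had 4 higher in NIL DOG1, 1 in NIL DOG3 and 0 in NIL DOG6, with medians of 0.22 in NIL DOG1, 0.20 in NIL DOG3 and 0.11 in NIL DOG6, and none of them passed the test of the difference.

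**Figure D5:**
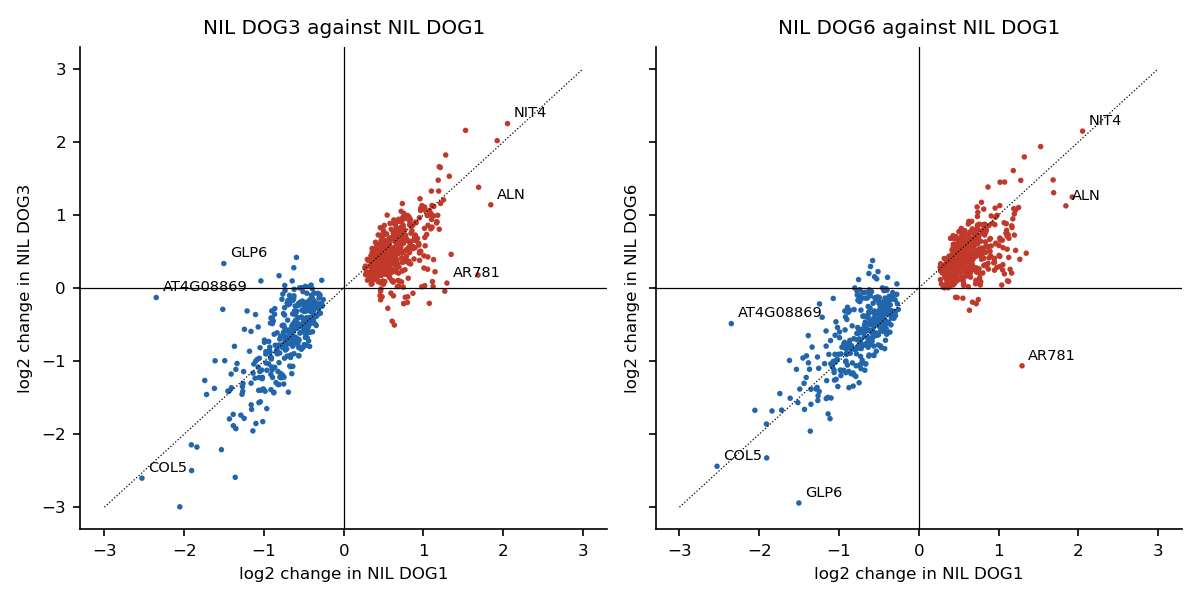
Log2 change (low nitrate minus 20C) in NIL DOG3 (left) and NIL DOG6 (right) against that in NIL DOG1 for the 764 probe sets called in NIL DOG1, red where higher and blue where lower in NIL DOG1, with a dotted line of equal change. The signs match in 733 and 745 of the 764, and AR781 and the germin-like gene GLP6 stand off the line without a called difference between lines.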

How the data were processed

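The authors deposited log2 expression values, which per the submitters' processing notes come from RMA. RMA corrects background, applies quantile normalization and summarises probes, so a change of the total RNA amount would not be seen. The RMA version, annotation and build were not given in the sources used here, and no coordinates are printed. All 15 groups (44 arrays) were fitted as group means with limma 3.58.1 (lmFit, eBayes) in R 4.3.3, with 29 residual degrees of freedom, no filter on dim probe sets and no block. Tests were two-sided. Adjusted p-values are limma's, after Benjamini-Hochberg over all 27827 probe sets.

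The members and the 29 gene lists (477 loci) were chosen with earlier results of these data known, so no list has a test of its own. Named genes were the 12 largest called rises and 12 largest called falls with groups not overlapping, the up to 4 most changed called genes of each list, DOG1, and up to 2 genes of lists with no call. Other called list members, and members named as not called, were chosen after their values were seen. Symbols came from a table of assembly TAIR10.1, which listed 27241 loci and gave 10556 symbols. A locus without a symbol there is given by its locus name. Another probe set had the same values for 182 probe sets (6 of them called). Promoter sequences had been planned and are not given here. Simulated arrays with known changes served to check the fit. Alternatives changed the arrays in the fit, the block, the filter, the variance prior and the centring, and left out each array.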

Additional observations from a re-analysis of the deposited data

How the results depend on the processing

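No gene reported as called changed sign under any alternative, while not every gene reported as not called was followed over the alternatives. The single call of the ethylene list was a rise with all groups and a fall with only the 6 arrays. With only the 6 arrays in the fit 233 probe sets were called (122 higher, 111 lower), and 41 of the 71 named genes called with all groups passed. With the 6 arrays and the replicate block, which leaves 2 residual degrees of freedom, 0 were called, 0 higher and 0 lower, although 3395 had an unadjusted p under 0.05 in limma. The replicate block in the fit of all 44 arrays gave 762 calls (434 higher, 328 lower), of which 731 were among the 764. It lost none of the 71 named genes but did lose LDA, while the genes DOG1 (adjusted p = 0.0332) and EFE (adjusted p = 0.0294) passed. The labels do not say that the same number marks the same block in both groups, so the numbers were not taken to pair the arrays. Deviations of same-numbered low-nitrate and 20C arrays correlated at 0.118, 0.002 and 0.021. With so few arrays per group these values cannot decide whether a block was shared. Leaving out 1 array gave 398 to 628 calls, 221 to 340 higher and 177 to 288 lower, and lost 9 to 20 of the 71 named genes. Testing the brighter probe sets only gave 1011 calls, a trended robust prior 878, where AT5G51440, MCM5, AT5G24170 and AT5G39010 did not pass, and centring each array on its median 676, where NRT1.8, PIF6, FUS3, AT5G51440 and AT5G39010 did not pass. The test of NIL DOG1 against the other lines called 0 probe sets by limma under each alternative run for it. Of the probe sets below the median level 0.489% were called, and whether this comes from dim signal or from genes without a change was not tested.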

Other observations

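Some gene families outside the lists were counted after their members had been seen among the calls, so the counts are descriptions. Of 11 ACT domain repeat genes 3 rose (ACR6, ACR8 at 1.02 ± 0.18, adjusted p = 0.000651, and ACR9 at 0.28 ± 0.07, adjusted p = 0.015) and ACR4 fell (-0.80 ± 0.20, adjusted p = 0.0213). ACR8 averaged 5.17 ± 0.18 under low nitrate and 4.15 ± 0.22 at 20C (SD, n = 3 each). ACR9 did not pass without low-nitrate array 2, low-nitrate array 3, 20C array 2 or 20C array 3, and ACR4 not without low-nitrate array 2, low-nitrate array 3, 20C array 1, 20C array 2 or 20C array 3. Of 12 cytokinin response factors, which belong to the AP2/ERF class, 3 fell, with CRF3 at -0.89 ± 0.22, adjusted p = 0.018, CRF4 at -0.58 ± 0.14, adjusted p = 0.0192 and CRF11 at -0.43 ± 0.12, adjusted p = 0.0381. CRF3 did not pass without low-nitrate array 2, low-nitrate array 3 or 20C array 2, CRF4 not without low-nitrate array 2, 20C array 1 or 20C array 2 and CRF11 not without low-nitrate array 1, low-nitrate array 2, low-nitrate array 3, 20C array 1, 20C array 2 or 20C array 3. With only the 6 arrays in the fit ACR9, CRF3, CRF4 and CRF11 did not pass.

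Of 12 WOX homeobox genes 2 fell, WOX2 and WOX12 (-0.70 ± 0.19, adjusted p = 0.0324), which did not pass without low-nitrate array 1, low-nitrate array 2, low-nitrate array 3, 20C array 1, 20C array 2 or 20C array 3. Of 18 A- and B-type cyclins, which drive mitosis, CYCB3;1 alone was called, with 3.36, 3.29 and 3.39 under low nitrate, against 4.51, 4.24 and 4.31 at 20C (-1.01 ± 0.17, adjusted p = 0.00041). Of 67 WRKY factors 2 rose, WRKY8 (1.10 ± 0.18, adjusted p = 0.000229) and WRKY33 (0.72 ± 0.19, adjusted p = 0.0245), and WRKY33 did not pass without low-nitrate array 2, low-nitrate array 3 or 20C array 1. JAZ8, a repressor of jasmonate signalling, had 6.73, 6.68 and 6.78 under low nitrate, against 5.30, 5.75 and 5.70 at 20C (1.14 ± 0.21, adjusted p = 0.00104) and was the single call of 10 JAZ genes. Among 21 CIPK kinases CIPK21 and CIPK3 (-0.97 ± 0.11, adjusted p = 5.34e-07) fell and CIPK2 rose (0.52 ± 0.13, adjusted p = 0.0251), the last not without low-nitrate array 2, low-nitrate array 3, 20C array 1 or 20C array 3. WRKY33 and CIPK2 did not pass with only the 6 arrays. The share of all probe sets called was 2.75%.

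Changes called in NIL DOG1 had the opposite sign in both other lines for 7 of the 764 genes, none of which was called in those lines. MCM5, a subunit of the replicative helicase, had 3.14, 3.26 and 3.34 under low nitrate, against 3.61, 3.95 and 3.85 at 20C in NIL DOG1 (-0.55 ± 0.14, adjusted p = 0.0251). Its change was 0.00 ± 0.16 in NIL DOG3 and 0.15 ± 0.14 in NIL DOG6. AT3G48980 had 5.27, 5.39 and 5.55 under low nitrate, against 4.70, 4.57 and 5.03 at 20C in NIL DOG1 (0.64 ± 0.17, adjusted p = 0.0271), with changes of -0.51 ± 0.19 in NIL DOG3 and -0.30 ± 0.17 in NIL DOG6. The difference between lines had its smallest p there (1.04 ± 0.21, adjusted p = 0.342). The others follow with their changes in NIL DOG1, NIL DOG3 and NIL DOG6 in turn, some of them near 0. AT3G07425 had -0.53 ± 0.12, 0.01 ± 0.14 and 0.13 ± 0.12. AT4G01140 had -0.63 ± 0.15, 0.28 ± 0.17 and 0.20 ± 0.15. LDA had 0.55 ± 0.16, -0.28 ± 0.18 and -0.14 ± 0.16. AT5G24170 had 0.48 ± 0.13, -0.12 ± 0.15 and -0.13 ± 0.13. AT5G39010 had 0.46 ± 0.13, -0.04 ± 0.14 and -0.13 ± 0.13. None of the 7 genes passed the test between lines. Each of the 7 calls in NIL DOG1 was lost on leaving out at least 1 of the 6 arrays, and with only the 6 arrays in the fit.

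GLP6, a germin-like gene of the cell wall, had 4.18, 4.20 and 4.88 under low nitrate, against 5.94, 6.29 and 5.54 at 20C in NIL DOG1 (-1.50 ± 0.41, adjusted p = 0.037), and was chosen after its values were seen. Its change was 0.34 ± 0.46 in NIL DOG3 and -2.94 ± 0.41 in NIL DOG6. The call in NIL DOG1 was lost without low-nitrate array 1, low-nitrate array 2, 20C array 1 or 20C array 2 (-1.32 to -1.49, adjusted p from 0.11 to 0.186).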
